A study of Mus musculus with 4 samples.

Results

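The IGF ligands, receptor and binding proteins described here are 9 genes, Igf1, Igf2, Igf1r and Igfbp2 to Igfbp7, taken from the count matrix by their symbols out of 30905 genes. They were followed in single-cell RNA of mouse prostate, in the stromal cells that make the ligand and binding proteins and in the epithelial cells that carry the receptor. Insulin-like growth factors are small secreted proteins that act through a receptor tyrosine kinase, Igf1r, which signals by way of the insulin receptor substrates, PI3 kinase and Akt. The binding proteins hold the ligands outside the cell, prolonging their life or keeping them from the receptor until proteases such as Pappa release them. In the prostate, Igf1 is known as a stromal growth factor for the epithelium, and its production is tied to androgen.

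Each of the 4 groups of mice was 1 library. The Trp53-intact group was 4 months old and untreated, and the Trp53-intact ADT group was 5.5 months old and had received ADT, read here as androgen deprivation therapy because the labels do not spell it out. The Trp53-deleted group was 3.5 months old and untreated, and the Trp53-deleted ADT group was 5.5 months old and had received ADT. In both Trp53-deleted groups the deletion is marked PC in the genotype, which stands for a prostate-restricted loss, and neither the driver of the deletion nor the number of mice per library is stated. Since each group was 1 library and both ADT groups were older, the effects of ADT, of age and of the library itself cannot be told apart, and neither can those of genotype and library. No comparison below has a replicate or a test, and genes were called higher or lower by size alone. Values given as a run of 4 are in the order Trp53-intact, Trp53-intact ADT, Trp53-deleted, Trp53-deleted ADT.

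The libraries held 7806 to 10595 barcodes and 58088678 to 148030357 UMIs (unique molecular identifiers, 1 per counted RNA molecule), and 5364 to 8833 cells per library were kept, with a median of 4129.5 to 5660.0 UMIs. Of 36198 barcode sequences, 128 occurred in more than 1 library. Levels are CPM, UMIs of a gene per 1000000 UMIs of all cells of a class in a library, with exact 95% Poisson intervals in brackets where given. All intervals cover counting error only. Trp53 stood at 55.8, 89.2, 17.3 and 18.9 CPM in luminal progenitor-like cells, so the Trp53-deleted libraries were low in epithelium, and at 44.5, 69.5, 46.0 and 45.2 CPM in fibroblast-like cells. Fibroblast-like cells carried all 8 fibroblast markers in each library, with a summed level of 22204 to 30843 CPM, against 48.3 to 218 CPM for the luminal progenitor markers. Luminal progenitor-like cells carried all 8 of their own markers at 12356 to 17722 CPM, against 127 to 261 CPM for the fibroblast markers. Macrophage markers (8 of 8 with a UMI) summed to 118, 71.1, 99.3 and 264 CPM in fibroblast-like cells, the most in the Trp53-deleted ADT library, and their part in the results was not tested. In the Trp53-deleted ADT library 636 cells (7.20%) formed a cluster led by Ptn, Crabp1, Postn and Cdkn2a, with a median of 82017.5 UMIs per cell and 1 cell in any other library. It was given no class name and kept out of the fibroblast-like cells, and results it would alter are given with it as well.

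The RefSeq promoter windows of Igf1 and Igfbp3 are printed, as the genes whose RNA differed most with ADT in fibroblast-like cells. Each window runs from 250 bases before to 50 after a RefSeq start site on GRCm38.p6. Capitals mark CG dinucleotides, the sites at which mammalian DNA is methylated.
Igf1, chr10:87860861-87861160, plus strand: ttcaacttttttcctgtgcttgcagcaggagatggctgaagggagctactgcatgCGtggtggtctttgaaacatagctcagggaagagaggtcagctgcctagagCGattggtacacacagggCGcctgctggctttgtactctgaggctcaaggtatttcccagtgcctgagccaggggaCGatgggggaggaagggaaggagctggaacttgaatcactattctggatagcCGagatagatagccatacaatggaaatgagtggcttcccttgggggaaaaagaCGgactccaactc
Igfbp3, chr11:7213874-7214173, minus strand: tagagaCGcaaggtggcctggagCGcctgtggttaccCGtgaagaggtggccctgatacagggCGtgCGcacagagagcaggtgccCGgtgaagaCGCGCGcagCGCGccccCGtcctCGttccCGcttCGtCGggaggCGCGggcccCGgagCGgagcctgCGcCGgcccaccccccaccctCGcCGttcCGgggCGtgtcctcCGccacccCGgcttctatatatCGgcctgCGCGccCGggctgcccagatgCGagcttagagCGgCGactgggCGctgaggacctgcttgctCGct
The Igf1 window held 6 CG dinucleotides and was 52.3% G and C, while the Igfbp3 window held 37 and was 71.7% G and C. Over all 32817 RefSeq windows of the same length the medians were 7.0 and 52.7%, so the Igf1 window was close to them and the Igfbp3 window above both. Both windows overlapped an annotated exon. The Igf1 start site used, 87861111, lies inside the GENCODE gene, which begins at 87858265, so that window is not at the start of the annotated gene. The Igfbp3 site, 7213923, is the start of the annotated gene.

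The windows were searched on both strands for the half-site bound by steroid receptors, AGAACA, whose reverse complement is TGTTCT. It stood in 2 of the 13 windows of the 9 genes (1 of Igfbp2 and 1 of Igf2) and in 6226 of the 32817 windows. The full androgen response element, a pair of facing half-sites with a spacer, which overlaps the search for the half-site, stood in 0 of the 13 and in 0.00914% of all. A p53 half-site stood in 1 window of Igf2 and in 8.36% of all. A TATA box, TATAAA or TTTATA, stood in the windows of Igfbp4 and Igfbp6 and in 13.6% of all. None of these letters occurred in the printed windows, which says nothing about binding elsewhere.

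In the GENCODE M21 annotation of GRCm38, Igf1 (ENSMUSG00000020053) spans chr10:87858265-87937042 on the plus strand and overlaps the antisense gene Igf1os. Igf1r (ENSMUSG00000005533) spans chr7:67952827-68233668 on the plus strand. Igf2 lies at chr7:142650766-142666816 on the minus strand and overlaps Igf2os, Mir483 and Gm49394. Igfbp2 and Igfbp5 are neighbours on chromosome 1, with 5457 bases between them, and Igfbp3 lies at chr11:7206086-7213923 on the minus strand. Igfbp7 overlaps Polr2b and Gm34648, which run on the other strand. Whether the counting used strand is not stated, so reads of Igf1, Igf2 and Igfbp7 are uncertain by what those partners contribute.

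The ligand RNA was almost all Igf1 and came from fibroblast-like cells. Igf1 stood at 2104 (2074 to 2135), 589 (576 to 603), 2128 (2102 to 2154) and 744 (724 to 765) CPM there. Both untreated libraries were high and both ADT libraries low, and no interval of the untreated libraries touched one of the ADT libraries. Igf1 was the highest in fibroblast-like cells among the 11 to 16 classes of at least 50 cells in every library, with macrophage-like cells next at 241, 119, 357 and 53.8 CPM. Neutrophil-like cells, used as the measure of free RNA, held 38.5, 10.5, 61.9 and 15.95 CPM, so the fibroblast-like and macrophage-like values stood above that background in every library. Luminal progenitor-like cells held 4.88, 2.60, 8.23 and 0.681 CPM, below the neutrophil-like level in each library. They were deeper, at medians of 30627, 11643, 36890 and 17665 UMIs against 3216, 3537, 2631 and 2615. An Igf1 UMI was found in 13.9%, 6.48%, 20.55% and 1.91% of them, against 10.1%, 2.95%, 12.75% and 3.85% of neutrophil-like cells. Since depth differed, neither measure decides whether this Igf1 was free RNA. Luminal-like cells, shallow at medians of 1048 and 1128 UMIs, held 66.7 (57.9 to 76.6) and 66.2 (43.3 to 97.0) CPM in the untreated libraries, above the neutrophil-like level (31.3 to 46.9) with Trp53 intact and overlapping with it (51.8 to 73.5) with Trp53 deleted. Igf2, the fetal growth factor, was nearly absent, with 19, 44, 12 and 6 UMIs in all kept cells, and luminal progenitor-like cells held none. That count of 0 allows up to 0.145, 0.269, 0.237 and 0.681 CPM at 3 counts per library.

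With ADT, the Igf1 level of fibroblast-like cells was 3.57-fold lower (95% interval 3.48 to 3.67) in Trp53-intact mice and 2.86-fold lower (2.78 to 2.95) in Trp53-deleted mice. In cells thinned to 2000 UMIs each, 81.5% had an Igf1 UMI in the Trp53-intact library and 46.7% in its ADT counterpart, against 76.0% and 42.8% with Trp53 deleted. In neutrophil-like cells, with median depths of 3216, 3537, 2631 and 2615 UMIs against 5400, 9728, 6841 and 7122 in fibroblast-like cells, the thinned shares were 6.42%, 1.64%, 7.09% and 3.62%. The unthinned shares in fibroblast-like cells were 82.1%, 70.4%, 83.6% and 58.4%, and thinning left out 389, 69, 207 and 66 shallower cells. Without ADT, the interval of the ratio of Trp53-deleted to Trp53-intact (1.01, 0.992 to 1.03) spanned 1, and with ADT the Trp53-deleted level was 1.26-fold higher (1.22 to 1.31). Counting the Ptn and Cdkn2a cluster, which held 19.6 CPM of Igf1, as fibroblast-like moved the log2 ratios of the Trp53-deleted ADT library. The ADT difference with Trp53 deleted went from -1.51 to -4.39, and the last comparison from 0.33 to -2.55. Class levels pool UMIs, and the 636 cells had a median of 82018 UMIs against 7122 in the 772 fibroblast-like cells. In that setting the cluster therefore outweighed the fibroblast-like cells of its library.

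**Figure D1:**
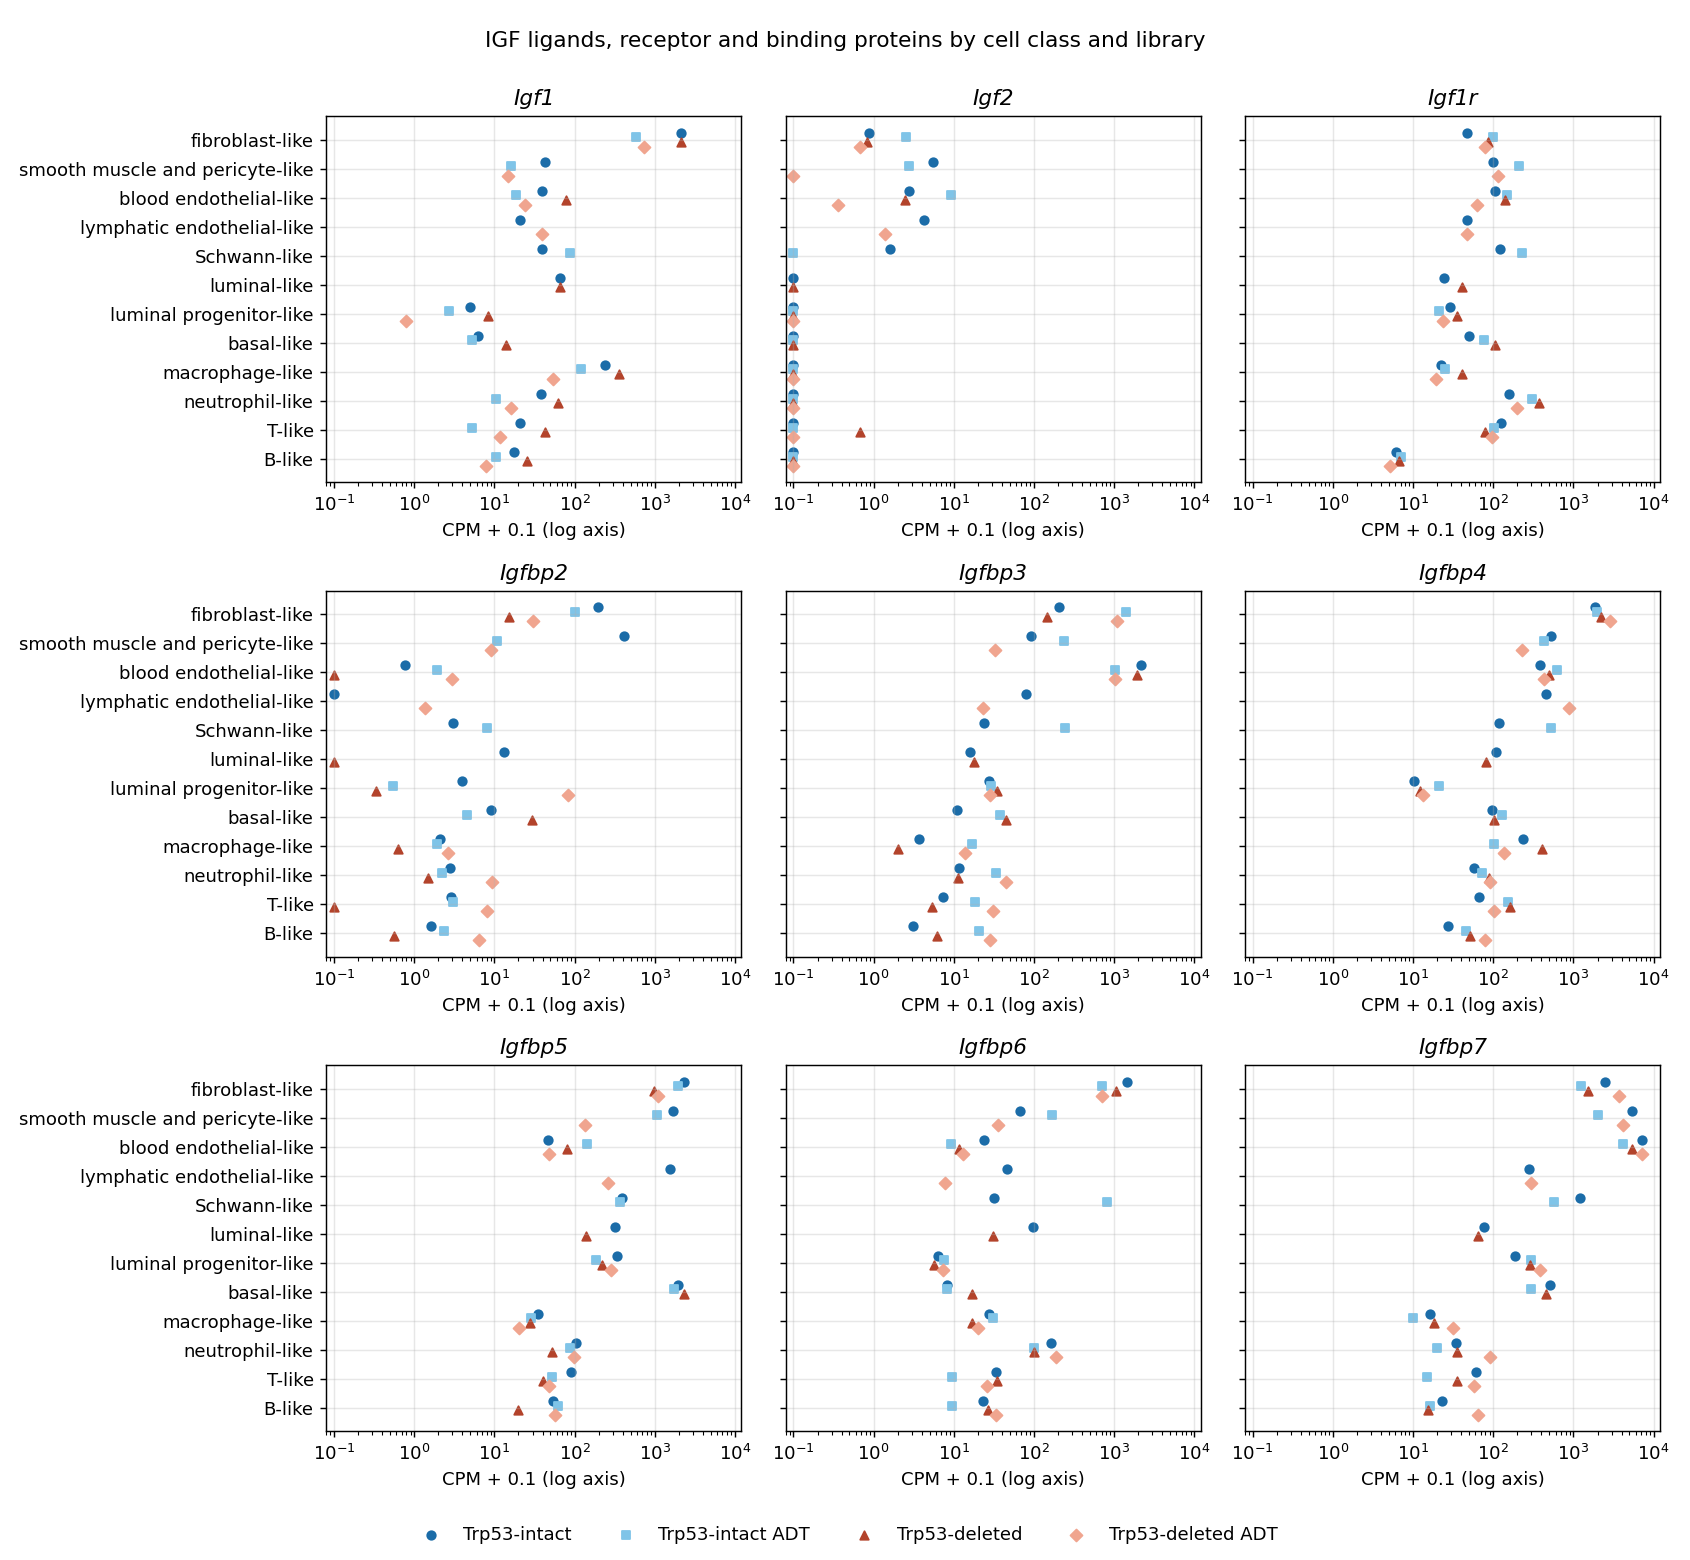
Level of each of the 9 genes (CPM plus 0.1, log axis) in 12 cell classes, with 1 point per library and a colour and shape per group; classes under 50 cells in a library have no point. Igf1 is highest in fibroblast-like cells in every library, with both ADT libraries to the left of both untreated ones, and Igf1r is highest in neutrophil-like cells.

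The fibroblast-like cells fell into 4 clusters, and the clusters that held most cells differed between the untreated and the ADT libraries. A cluster led by Sult1e1, Cxcl13 and C7 held 1010, 77, 1305 and 43 cells. A cluster led by Apod, Epyc and Mmp3 held 23, 837, 26 and 140 cells. A cluster led by Wif1 and Lgr5 held 41, 176, 224 and 257 cells, and a cluster led by Mgp, Cxcl14 and Mfap4 held 168, 114, 28 and 332 cells. Igf1 and Igfbp3 were not among the genes that formed the clusters, but Igf1 was among the 10 leading genes of the first and Igfbp3 among those of the second. The size of the clusters was therefore not used as a result.

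Within clusters, Igf1 was lower with ADT where it had been high. In the Sult1e1 and C7 cluster it stood at 2543, 288, 2528 and 467 CPM, which is 8.82-fold lower (7.73 to 10.1) with ADT in Trp53-intact mice and 5.42-fold lower (4.39 to 6.77) in Trp53-deleted mice. This cluster had few cells in the ADT libraries, and the 43 cells of the Trp53-deleted ADT library had a median of 1620 UMIs against 6780 in the untreated one; 5 of those 43 cells held 72.4% of their 87 Igf1 UMIs. In the Wif1 and Lgr5 cluster Igf1 was low throughout, at 139, 107, 161 and 89.0 CPM, and with ADT it was 1.81-fold lower (1.47 to 2.23) with Trp53 deleted, while with Trp53 intact the interval of the fold (0.911 to 1.83) spanned 1 and 5 of the 41 untreated cells held 36 of the 45 UMIs. In the Cxcl14 and Mfap4 cluster it was 985, 490 and 1024 CPM in the Trp53-intact, Trp53-intact ADT and Trp53-deleted ADT libraries, and the last 2 differed by 2.09-fold (1.94 to 2.25). With equal weight for each cluster of at least 30 cells in both libraries, the Igf1 level was 4.14-fold lower with ADT in Trp53-intact mice over 3 clusters and 4.84-fold lower in Trp53-deleted mice over 2 clusters.

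**Figure D2:**
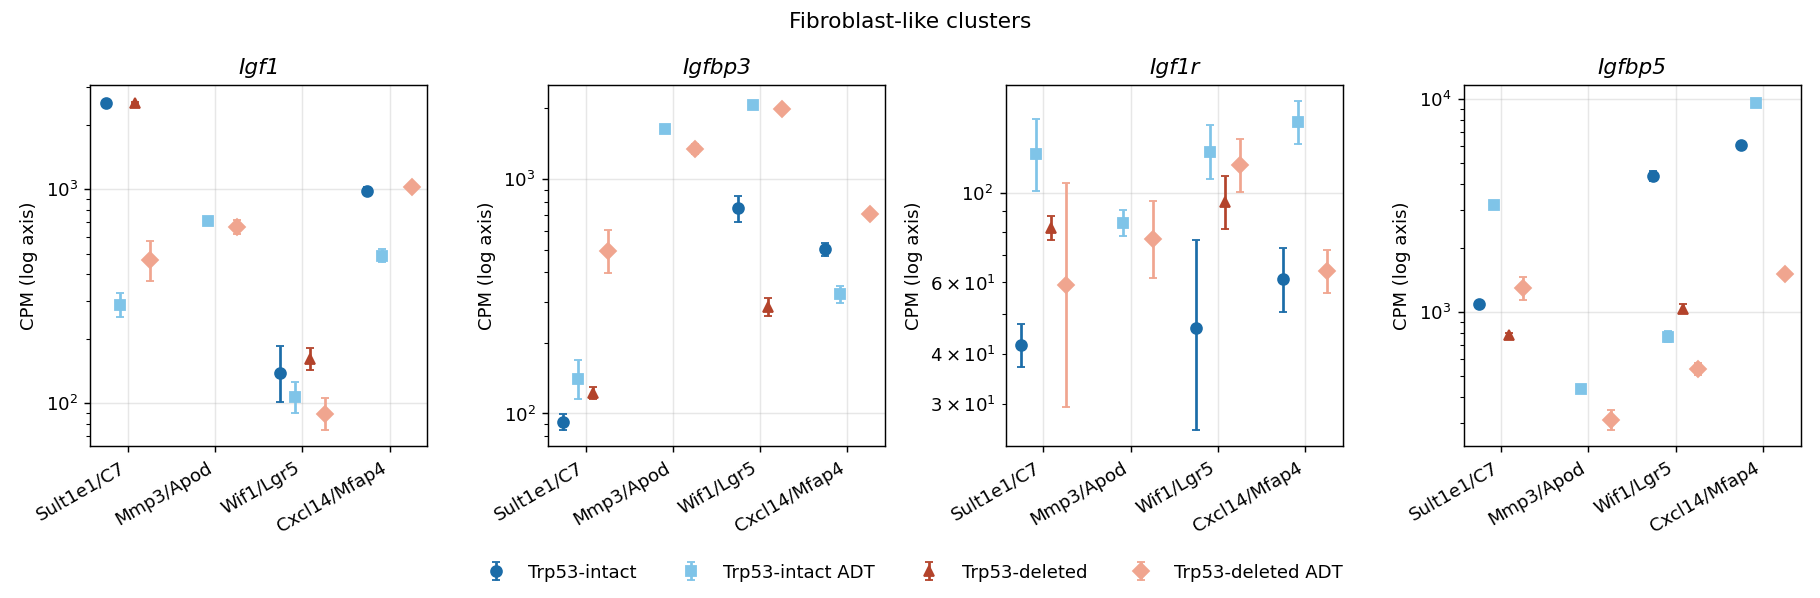
Igf1, Igfbp3, Igf1r and Igfbp5 in the 4 fibroblast-like clusters, named by leading genes (CPM, log axis; 1 point per library, bars are exact 95% Poisson intervals; clusters under 30 cells in a library have no point). Igf1 is highest in the Sult1e1 and C7 cluster of both untreated libraries, and Igfbp3 is highest in the Mmp3 and Wif1 clusters of both ADT libraries.

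Fibroblast-like cells supplied 79.5% (79.0 to 80.0, Clopper-Pearson), 87.7% (87.0 to 88.4), 90.6% (90.2 to 90.9) and 61.8% (60.7 to 62.9) of each library's Igf1 UMIs. Macrophage-like cells supplied 17.1%, 7.78%, 7.06% and 18.7%, and in the Trp53-deleted ADT library the Ptn and Cdkn2a cluster supplied 13.7%. These shares move with the number of cells of a class as well as with the level per cell. Among macrophage-like cells, a cluster led by Folr2 and Cd163, genes of resident tissue macrophages, held the most Igf1 in each library, at 459, 335, 495 and 363 CPM. Its level was 1.37-fold lower with ADT in both genotypes (1.19 to 1.58 with Trp53 intact and 1.18 to 1.59 with Trp53 deleted). Over all macrophage-like cells Igf1 was 2.03-fold lower (1.87 to 2.20) and 6.65-fold lower (6.22 to 7.11), but the clusters that made up the class differed. In the Trp53-deleted ADT library 2084 of the 2403 macrophage-like cells lay in a cluster led by Ms4a4c and Cx3cr1, in which Igf1 was 49.98, 55.9, 67.2 and 51.8 CPM.

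**Figure D3:**
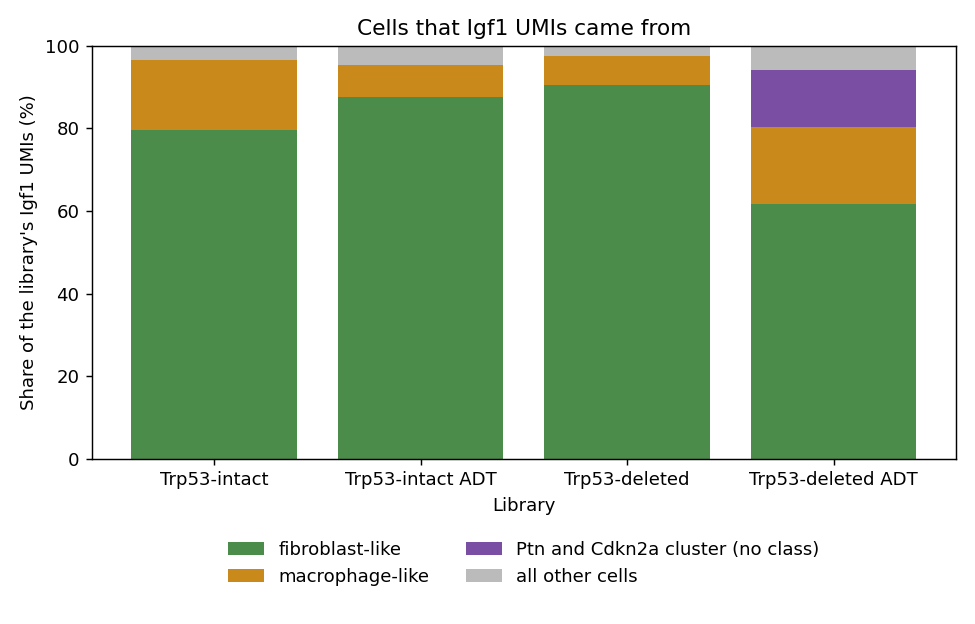
Share of each library's Igf1 UMIs by the cells they came from (bars add to 100%). Fibroblast-like cells supply 61.8% to 90.6%, and the Ptn and Cdkn2a cluster supplies 13.7% in the Trp53-deleted ADT library.

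The receptor gene Igf1r was found at moderate levels in most classes and was not highest in the epithelium. In luminal progenitor-like cells, the epithelial class present in all 4 libraries, it stood at 28.6 (26.3 to 31.0), 20.9 (18.4 to 23.8), 35.1 (32.0 to 38.6) and 23.4 (19.1 to 28.4) CPM. The ADT libraries were the lower of each pair, by 1.37-fold (1.17 to 1.60) with Trp53 intact and 1.503-fold (1.21 to 1.88) with Trp53 deleted; on the log2 scale with 5 CPM added the ratios were -0.37 and -0.50, neither of which reached 1.5-fold. The Trp53-deleted level was 1.23-fold higher (1.08 to 1.39) without ADT, and with ADT the interval of the ratio (0.877 to 1.41) spanned 1. The cells of this class were shallower in the ADT libraries, with medians of 30627, 11643, 36890 and 17665 UMIs. An Igf1r UMI was found in 48.4%, 24.3%, 58.9% and 34.4% of them as counted. After thinning to 2000 UMIs the shares were 4.23%, 4.22%, 5.16% and 5.37%, close together within each pair. B-like cells, taken as background because neutrophil-like cells carry the receptor RNA, held 6.02, 7.05, 6.48 and 5.11 CPM, and 0.985%, 1.35%, 1.26% and 0% of them had a UMI when thinned, at median depths of 5526, 4278, 4022 and 3834 UMIs.

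Basal-like cells held more Igf1r than luminal progenitor-like cells in each of the 3 libraries that had at least 50 of them, at 50.04, 75.8 and 104 CPM (Trp53-intact, Trp53-intact ADT and Trp53-deleted). Luminal-like cells, the secretory cells of the gland, were nearly absent from the ADT libraries and held 23.9 and 40.8 CPM in the untreated ones, at the shallow depth given above. Fibroblast-like cells held 46.7, 101, 85.5 and 77.8 CPM, and were thus above the luminal progenitor-like cells in every library. Neutrophil-like cells were highest in every library, at 158, 305, 369 and 196 CPM, followed by T-like (124), Schwann-like (230), blood endothelial-like (139) and smooth muscle and pericyte-like (116) cells in the 4 libraries in turn. In the Trp53-intact ADT library the intervals of the neutrophil-like and Schwann-like levels overlapped, and in the other 3 the first place did not overlap with the next. A neutrophil-like cluster led by Prok2 and Itpr2 held 481, 522 and 957 CPM in the first 3 libraries, from 38, 259 and 58 cells, and 5 cells held 79.6%, 14.85% and 47.3% of those UMIs. A T-like cluster led by Trdc, Cd163l1 and Tcrg-C1, genes of gamma delta T cells, held 523 CPM in the Trp53-intact ADT library, where each of its 34 cells had an Igf1r UMI. It held 348.5 CPM in the Trp53-deleted ADT library, where 39 of its 51 cells had one, against 208 and 144 CPM in the neutrophil-like clusters of at least 30 cells.

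In fibroblast-like cells Igf1r was 2.16-fold higher (1.93 to 2.41) with ADT in Trp53-intact mice and 1.10-fold lower, with an interval (0.990 to 1.22) that spanned 1, in Trp53-deleted mice. It was higher in all 3 clusters compared in Trp53-intact mice, by 2.98-fold, 2.73-fold and 2.44-fold in the Sult1e1, Wif1 and Cxcl14 clusters. Without ADT the Trp53-deleted level was 1.83-fold higher (1.63 to 2.06), and with ADT it was 1.29-fold lower (1.17 to 1.43). The untreated Trp53-intact library was the low one of the 4.

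Igfbp3 was higher with ADT in fibroblast-like cells of both genotypes, and over the class as a whole by more than any of the other 5 binding proteins differed. That first place was lost to Igfbp7 (1.93-fold lower) with equal weight over shared clusters in Trp53-intact mice, and to Igfbp4 and Igfbp6 with the Ptn and Cdkn2a cluster counted in Trp53-deleted mice. Igfbp3, the main carrier of the ligands in serum, stood at 205 (196 to 215), 1396 (1376 to 1417), 147 (141 to 154) and 1086 (1061 to 1111) CPM. Both ADT libraries were far above both untreated ones, by 6.81-fold (6.49 to 7.14) with Trp53 intact and 7.37-fold (up to 7.76 within its interval) with Trp53 deleted. After thinning, 11.4%, 56.7%, 12.7% and 53.3% of fibroblast-like cells had an Igfbp3 UMI, against 2.41%, 6.36%, 1.90% and 8.45% of neutrophil-like cells. Blood endothelial-like cells differed the other way in summed level, at 2188, 1017, 1953 and 1014 CPM. That is 2.15-fold lower (2.01 to 2.31) with ADT in Trp53-intact and 1.93-fold lower (1.82 to 2.04) in Trp53-deleted mice. In the untreated Trp53-deleted library 5 of the 116 endothelial-like cells held 76.5% of these UMIs, so that level rested on few cells. After thinning, 52.5%, 53.2%, 32.1% and 55.3% of endothelial-like cells had an Igfbp3 UMI, a share not lower with ADT in either genotype. In the untreated libraries endothelial-like cells held the highest level, and in the ADT libraries fibroblast-like cells did. Fibroblast-like cells supplied 30.3%, 87.7%, 44.1% and 28.9% of all Igfbp3 UMIs, and in the Trp53-deleted ADT library the Ptn and Cdkn2a cluster supplied 49.9%.

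Within fibroblast-like clusters the Igfbp3 difference was not uniform. In the Wif1 and Lgr5 cluster it was 749, 2065, 284 and 1982 CPM, higher in the ADT library of each pair, but 5 of the 41 untreated Trp53-intact cells held 92.6% of their 243 UMIs; the fold with Trp53 deleted was 6.98 (6.35 to 7.68). In the Sult1e1 and C7 cluster it was 92.2, 140, 122 and 494 CPM, higher in the ADT libraries, where 5 cells held 53.2% and 70.7% of the 109 and 92 UMIs. In the Cxcl14 and Mfap4 cluster of Trp53-intact mice it was lower with ADT, at 323 against 502 CPM, with 46.0% and 61.1% of the UMIs in 5 cells. The Apod and Mmp3 cluster, which was large in the ADT libraries, held 1631 and 1342 CPM there. With equal weight over shared clusters the log2 ratio with ADT in Trp53-intact mice went from 2.74 to 0.90, and counting the Ptn and Cdkn2a cluster (222 CPM) took that of Trp53-deleted mice from 2.84 to 1.07. In luminal progenitor-like cells Igfbp3 was 27.3, 29.1, 35.1 and 28.4 CPM. The untreated values were above those of neutrophil-like cells (11.7 and 11.3 CPM), and the ADT values did not exceed theirs (33.2 and 44.8 CPM). Luminal progenitor-like cells were deeper, and with ADT 22.45% and 24.2% of them had an Igfbp3 UMI, against 10.1% and 11.2%. After thinning the shares with ADT were 5.96% and 2.01% against 6.36% and 8.45%. Whether this Igfbp3 was free RNA was not tested.

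Igfbp4, a binding protein that holds Igf1 back until Pappa cleaves it, was highest in fibroblast-like cells in every library and was the member with the smallest difference with ADT in Trp53-intact mice. Its levels were 1883, 1967, 2195 and 2895 CPM, with the Trp53-deleted ADT library above the others. With ADT it was 1.04-fold higher (1.02 to 1.07) with Trp53 intact and 1.32-fold higher (1.30 to 1.34) with Trp53 deleted. Macrophage-like cells also held Igfbp4, at 237, 102, 407 and 137 CPM. Over the class it was lower with ADT in both genotypes, but the clusters that made up the class differed. Among fibroblast-like clusters of Trp53-intact mice, Igfbp4 was 1.33-fold lower with ADT in the Sult1e1 cluster and 1.70-fold and 1.54-fold higher in the Wif1 and Cxcl14 clusters. In Trp53-deleted mice it was 1.66-fold higher in the Sult1e1 cluster, where 5 of the 43 ADT cells held 68.8% of the UMIs, and 1.24-fold lower in the Wif1 cluster. Within the Folr2 and Cd163 cluster the macrophage-like values lay closer together, at 515, 493, 605 and 395 CPM. In the Ms4a4c and Cx3cr1 cluster 19.2%, 41.8%, 26.9% and 53.5% of cells had an Igfbp4 UMI, more with ADT in both genotypes. Median depths there were 10561, 13166, 9852 and 10954 UMIs. In clusters led by Mmp12 and by Mki67, the Trp53-intact shares were 58.2% and 50.7% without ADT and 44.3% and 53.1% with it.

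Igfbp5, which binds the extracellular matrix, was shared between stroma and basal epithelium. Fibroblast-like cells held 2314, 1972, 991 and 1100 CPM. The Trp53-intact libraries were thus above the Trp53-deleted ones, by 2.34-fold (2.28 to 2.39) without ADT and 1.79-fold (1.75 to 1.84) with it. The Cxcl14 and Mfap4 cluster supplied 12052 of the 20767 Trp53-intact UMIs and 17452 of the 24709 Trp53-intact ADT UMIs, from 168 and 114 cells. The untreated Trp53-deleted library had 28 cells of it, so the class folds cannot be read apart from which clusters each library held. Basal-like cells held 1932, 1729 and 2325 CPM in the first 3 libraries, the highest value of any class in the Trp53-deleted library. Luminal progenitor-like cells held 338, 184, 218 and 285 CPM. In fibroblast-like cells the Cxcl14 and Mfap4 cluster was highest, at 6103, 9621 and 1513 CPM in the Trp53-intact, Trp53-intact ADT and Trp53-deleted ADT libraries. In the Sult1e1 and C7 cluster Igfbp5 was 1084, 3190, 778 and 1293 CPM, but 5 cells held 55.3% and 75.5% of the UMIs in the ADT libraries. In the Wif1 and Lgr5 cluster it was 4345, 765, 1036 and 539 CPM, and 5 cells held 78.9%, 64.8%, 34.4% and 37.5% of the UMIs, with 616 of the 1409 untreated Trp53-intact UMIs in 1 cell. The differences with ADT in the Sult1e1 cluster, and in the Wif1 cluster with Trp53 intact, thus rested on few cells. In the Cxcl14 cluster 135 of 168 Trp53-intact and 102 of 114 Trp53-intact ADT cells had an Igfbp5 UMI. There 5 cells held 31.1% and 28.15% of the UMIs. Over the class the ratios with ADT were 0.852 and 1.11.

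Igfbp6, which prefers Igf2 as its ligand, was at 1465 (1440 to 1490), 700 (685 to 715), 1048 (1030 to 1067) and 713 (693 to 733) CPM in fibroblast-like cells. The ADT libraries were the 2 low ones, by 2.09-fold (2.04 to 2.15) with Trp53 intact and 1.47-fold (1.42 to 1.52) with Trp53 deleted, the latter under the 1.5-fold call. Taking off the neutrophil-like CPM of each library moved the log2 ratio of the Trp53-deleted pair from -0.55 to -0.86 and made it a call. The neutrophil-like level was 99.5 and 191 CPM in that pair, against 26.4 and 33.2 CPM in B-like cells. It was above the B-like level in every library, and whether it was free RNA was not tested. In Trp53-intact mice the Sult1e1 cluster did not follow, with 1107 and 1146 CPM, while the Wif1 and Cxcl14 clusters were 1.86-fold and 2.39-fold lower with ADT. In the Trp53-deleted ADT library the Ptn and Cdkn2a cluster supplied 70.6% of all Igfbp6 UMIs, at 347 CPM.

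Igfbp7, a secreted protein of vessels with low affinity for the ligands, was highest in blood endothelial-like cells in every library (7098, 4167, 5374 and 7223 CPM). In fibroblast-like cells its levels were 2481, 1234, 1505 and 3663 CPM. With ADT it was 2.01-fold lower (1.97 to 2.05) in Trp53-intact and 2.43-fold higher (2.39 to 2.48) in Trp53-deleted mice. The 3 clusters compared in Trp53-intact mice were all lower, by 3.25-fold, 2.14-fold and 1.66-fold. In Trp53-deleted mice it was 1.75-fold higher (1.58 to 1.92) in the Sult1e1 cluster, with 51.7% of the ADT UMIs in 5 cells, and 1.01-fold (0.964 to 1.06) in the Wif1 cluster. Equal weight over those clusters lowered the log2 ratio in Trp53-deleted mice from 1.28 to 0.37, and counting the Ptn and Cdkn2a cluster (630 CPM) turned it to -0.66. In luminal progenitor-like cells Igfbp7 was 188, 296, 285 and 381 CPM, higher with ADT in both genotypes by 1.58-fold (1.503 to 1.65) and 1.34-fold (1.26 to 1.42).

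Igfbp2 was carried by few cells. Fibroblast-like cells held 194, 101, 15.2 and 30.7 CPM, and the 5 cells with the most Igfbp2 held 59.9%, 70.3%, 89.3% and 65.9% of those UMIs. Most came from the Cxcl14 and Mfap4 cluster, at 849, 680 and 47.4 CPM in the Trp53-intact, Trp53-intact ADT and Trp53-deleted ADT libraries. The Trp53-intact libraries were the higher ones, by 12.8-fold (10.96 to 14.9) without ADT and 3.29-fold (2.84 to 3.83) with it, as counting error alone would put it. In luminal progenitor-like cells it was 3.87, 0.448, 0.237 and 83.1 CPM, and 19 of the 157 cells of the Trp53-deleted ADT library carried 366 UMIs. In that library, where the Ptn and Cdkn2a cluster held 84.4% of all Igfbp2 UMIs, neutrophil-like cells held 9.12 CPM. In smooth muscle and pericyte-like cells of the Trp53-intact library 8 of 128 cells carried it, and 5 of them held 99.2% of the 385 UMIs.

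Over the 9 genes in fibroblast-like cells, calls were made at 1.5-fold on the log2 ratio with 5 CPM added, for genes with at least 20 UMIs over both libraries. With ADT in Trp53-intact mice 2 of 9 were higher (Igfbp3 and Igf1r; 7.23% of all genes measured were called higher) and 4 were lower (Igf1, Igfbp2, Igfbp6 and Igfbp7; 6.22% of all). With ADT in Trp53-deleted mice 3 of 8 were higher (Igfbp3, Igfbp7 and Igfbp2; 8.86% of all) and 1 was lower (Igf1; 10.6% of all). Without ADT, Trp53-deleted against Trp53-intact, 1 of 8 was higher (Igf1r; 10.5% of all) and 3 were lower (Igfbp2, Igfbp5 and Igfbp7; 5.81% of all). With ADT, 1 of 9 was higher (Igfbp7; 8.39% of all) and 2 were lower (Igfbp2 and Igfbp5; 6.79% of all). The median log2 ratios of the members measured, 9, 8, 8 and 9 genes, were -0.23, 0.27, -0.47 and -0.35 in these comparisons, against 0.06, -0.06, 0.14 and 0.02 over all genes measured. Comparisons that share a library are not independent of each other. Scaling by TMM factors shifted all log2 ratios of the untreated genotype comparison by -0.17, which took the share of higher among called genes from 64.3% to 38.3%; in the ADT genotype comparison it went from 55.3% to 44.6%. No called member changed direction by that scaling, and Igfbp3 (-0.63) and Igfbp6 (-0.65) became calls in the untreated genotype comparison. With the Ptn and Cdkn2a cluster counted as fibroblast-like, the log2 ratios with ADT in Trp53-deleted mice were -1.28 for Igf1r, -1.47 for Igfbp4, -0.86 for Igfbp5 and -1.43 for Igfbp6.

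**Figure D4:**
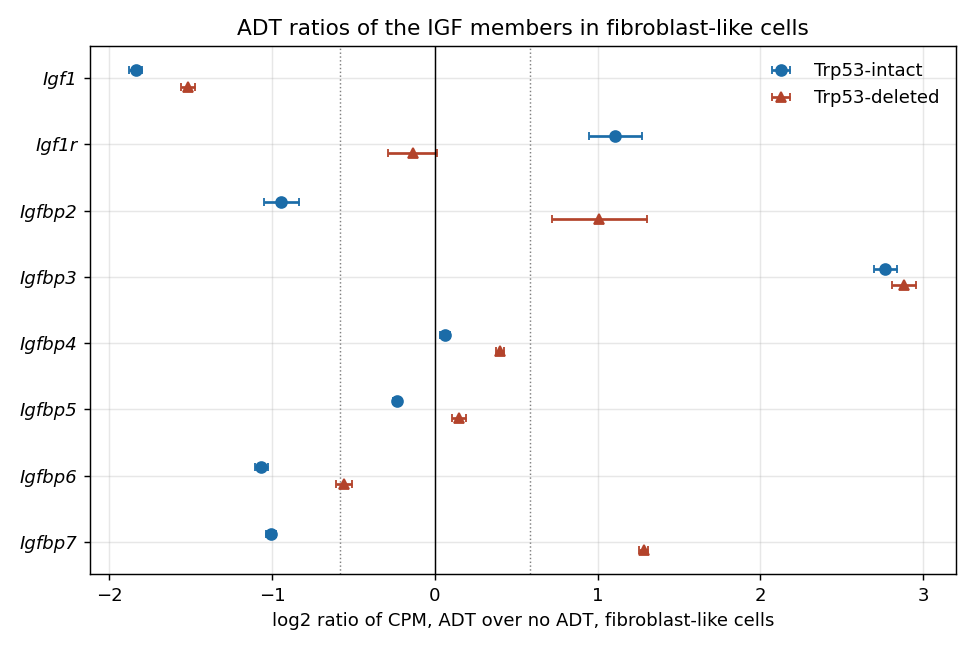
Log2 ratio of CPM, ADT over no ADT, of 8 of the genes in fibroblast-like cells (Igf2 is left out for its low counts); bars are exact 95% intervals of the ratio for counting error only, and dotted lines mark 1.5-fold. Igf1 lies to the left and Igfbp3 to the right in both genotypes, while Igfbp7 and Igfbp2 lie on opposite sides.

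Fibroblast-like cells carried more binding-protein RNA per ligand RNA in the ADT libraries. The 6 binding proteins summed to 4.06, 12.5, 2.77 and 12.7 UMIs per UMI of Igf1 and Igf2, with 3′ counting giving 1 tag per molecule whatever the length. Summed binding-protein levels were 8542, 7369, 5901 and 9487 CPM and ligand levels 2105, 591, 2128 and 745 CPM. Capture differs between genes, so the ratio is compared between libraries only. The Ptn and Cdkn2a cluster was not in these sums. In the Trp53-deleted ADT library it held 1137 UMIs of Igf1, 31371 of Igfbp4, 28708 of Igfbp5 and 36640 of Igfbp7. Fibroblast-like cells of that library held 5121 ligand and 65257 binding-protein UMIs. Counting the cluster would lower both summed levels there and could change their order between libraries. The sums with it were not computed. In cells thinned to 2000 UMIs, an Igf1 UMI was found in 65.0%, 43.4%, 69.0% and 31.4% of the fibroblast-like cells that had an Igfbp3 UMI. Of those without one, 83.6%, 51.0%, 77.0% and 55.8% had an Igf1 UMI, a higher share in each library. For Igfbp4 the order was the other way: an Igf1 UMI was found in 84.9%, 49.5%, 77.4% and 47.8% of cells with an Igfbp4 UMI and in 65.1%, 28.5%, 60.2% and 15.0% of cells without.

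Of 37 further genes of IGF signalling, 28 to 32 were measured in each comparison. In fibroblast-like cells with ADT, 3 of 30 were higher and 2 lower in Trp53-intact mice, beside 7.23% and 6.22% of all genes, and 5 of 31 were higher and 6 lower in Trp53-deleted mice, beside 8.86% and 10.6%. Irs2, a docking protein of the receptor, was 202 against 78.6 CPM with ADT in Trp53-intact mice, and Pappa2, a protease of binding proteins, was 19.8 against 51.6 CPM. Grb14 (8.06 against 2.23 CPM) and Igf2bp3 (12.2 against 6.35 CPM) were also higher. Pik3r1, the regulatory subunit of PI3 kinase, was lower with ADT in both genotypes, at 198 against 330 CPM and 215 against 364 CPM. In Trp53-deleted mice Stc1 and Stc2, inhibitors of Pappa, were 7.71 against 0.488 and 10.5 against 0.651 CPM, and Pappa itself was 28.4 against 14.2 CPM. Socs2, a target and brake of growth hormone signalling, was 86.1 against 51.9 CPM. Foxo1 (37.9 against 88.9 CPM), Stat5b (20.1 against 44.3 CPM) and Lrp1 (622 against 1084 CPM) were lower. Between genotypes, 7 of 32 were higher and 2 lower without ADT (10.5% and 5.81% of all genes), with Foxo1 at 88.9 against 41.4 CPM and Pappa2 at 21.4 against 51.6 CPM. With ADT (8.39% and 6.79% of all genes), 4 of 30 were higher, Stc2 and Pappa (28.4 against 13.1 CPM) among them, and 2 were lower, Irs2 (82.0 against 202 CPM) and Adamts1 (221 against 343 CPM).

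In luminal progenitor-like cells, the receiving epithelium, 8 members were measured. With ADT in Trp53-intact mice 2 were higher (Igfbp7 and Igfbp4, beside 6.28% of all genes) and 2 lower (Igfbp2 and Igfbp5, beside 5.05% of all). Igfbp4 stood at 10.3 and 21.03 CPM, below the 56.8 and 72.3 CPM of the shallower neutrophil-like cells. As counted, 25.3% and 29.2% of luminal progenitor-like cells had an Igfbp4 UMI, against 16.1% and 20.4%. Whether this Igfbp4 was free RNA was not tested. With ADT in Trp53-deleted mice 1 was higher (Igfbp2, beside 6.07% of all) and 1 lower (Igf1, beside 7.58% of all). That Igf1 call came from 3 against 104 UMIs, at levels below the neutrophil-like CPM. Without ADT, Trp53-deleted against Trp53-intact, 1 was higher (Igfbp7; 3.18% of all) and 2 lower (Igfbp2 and Igfbp5; 2.57% of all). With ADT, 2 were higher (Igfbp2 and Igfbp5; 4.08% of all) and 0 lower (3.24% of all). The members' median log2 ratios were -0.15, 0.15, 0.21 and 0.05, against 0.05, -0.08, 0.11 and -0.02 over all genes.

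Of the further genes in these cells, ADT came with 6 of 30 higher and 3 lower in Trp53-intact mice, beside 6.28% and 5.05% of all genes, and with 5 of 29 higher and 4 lower in Trp53-deleted mice, beside 6.07% and 7.58%. Grb10, an adaptor that dampens the receptor, was 16.7 against 3.14 CPM and 15.9 against 4.91 CPM. Igf2bp2, an RNA-binding protein, was 22.2 against 5.75 CPM and 27.3 against 5.07 CPM. Adamts1, a secreted protease, was 69.7 against 31.7 CPM and 105 against 34.4 CPM, and Lrp1 was 24.4 against 9.90 CPM and 20.2 against 9.81 CPM. Stat5a, a transcription factor of growth hormone and prolactin signalling, was lower in both genotypes, at 11.7 against 27.2 CPM and 8.17 against 25.01 CPM. Htra1, a protease of binding proteins, was 9.08 against 2.37 CPM in Trp53-deleted mice. Igfals, which joins Igfbp3 and the ligand in serum, was 21.7 against 10.1 CPM in Trp53-intact and 6.36 against 12.4 CPM in Trp53-deleted mice. Insrr, a relative of the insulin receptor, had 0 UMIs in both ADT libraries against 71 and 102 UMIs without ADT. Grb14 was 0.448 against 4.69 CPM and 0.454 against 4.59 CPM. Between genotypes few of the list were apart. Without ADT 1 of 29 was higher (Insrr, 8.07 against 3.43 CPM) and 0 were lower, beside 3.18% and 2.57% of all genes. With ADT 2 of 28 were higher (Htra1 and Stc2) and 1 was lower (Igfals), beside 4.08% and 3.24%. The median log2 ratios of these further genes were 0.19, -0.05, 0.20 and -0.03 in luminal progenitor-like cells and 0.18, -0.13, 0.17 and -0.02 in fibroblast-like cells.

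Over 53 pairs of class and library of at least 50 cells, from 17 classes, other genes were ranked by the Pearson correlation of log2 CPM (5 added) with each member. The pairs share libraries and cells of 1 class, so the values only describe likeness. Closest to Igf1 were C4b (0.887), Gpx3 (0.862) and Clec3b (0.854). Closest to Igfbp3 were Bmp4 (0.881), Cxcl12 (0.873) and Cdr2l (0.865), and to Igfbp4 Colec12 (0.877), Fkbp7 (0.870) and Cxcl12 (0.866). Igfbp5 was most like Rbms3 (0.938), Igfbp6 most like Lum (0.880) and Igfbp7 most like Adamts1 (0.945). For Igf1r the closest were Klf7 (0.779), Inpp5a (0.761) and Arid5b (0.752), and for Igfbp2 the closest was Cacna1g (0.772). Among the members, Igfbp3 and Igfbp7 were the most alike pair (0.832), and Igf1 was more like Igfbp4 (0.764) and Igfbp6 (0.729) than like Igfbp3 (0.365).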

How the data were processed

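Prostate cells of 4 groups of mice, 1 library each, were counted with the 10x Chromium 3' kit. The authors deposited 1 matrix of raw UMI counts per gene and barcode, aligned to mm10. The submitters' processing notes name Cell Ranger 2.1.1 and the matrix header gives software version 3.1.0. A deposited table of barcode suffixes gave the library. A further allele carried by every group is not reported here.

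Cells with at least 500 UMIs, 200 genes and at most 20% mitochondrial UMIs were kept, and the highest Scrublet scores were left out as doublets (0.008 of a library per 1000 barcodes; 594, 485, 330 and 793 cells). With scanpy 1.11.5, counts scaled to 10000 per cell and logged gave 2000 variable genes (6 members left out), 40 principal components, 20 neighbours and 36 Leiden clusters at resolution 1. Marker lists named 19 classes, written "-like", and 6 clusters stayed unnamed, among them those with at least 95% of cells from 1 library; these thresholds were set after the clusters were seen.

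UMIs were summed per class and library into CPM. Log2 ratios used 5 CPM as pseudocount, calls needed 1.5-fold and at least 20 UMIs over both libraries. Intervals are exact (95%) and cover counting error only. With 1 library per group no test was made. TMM factors came from edgeR 4.0.16. The intervals were tested on simulated data. Members and lists, the 37 further genes included, were chosen with earlier results of these data known. Named among those 37 were up to 4 genes each way with the largest ratios per comparison. Named for likeness were the closest 3 genes, with at least 200 UMIs and no Gm, Rik, mitochondrial or ribosomal protein genes. The GENCODE M21 annotation held 30766 of the 30905 gene identifiers.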

Additional observations from a re-analysis of the deposited data

Results flagged for a closer look

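In 4 cases the ADT difference of a member went opposite ways in the genotypes, at least 1.5-fold each. The difference between genotypes was not tested, since each group is 1 library. Igfbp7 in fibroblast-like cells had log2 ratios of -1.0 with Trp53 intact and 1.28 with Trp53 deleted. Igfbp2 in the same cells had -0.91 and 0.82, with most UMIs in 5 cells of each library. Igfbp2 in luminal progenitor-like cells had -0.7, from 80 untreated UMIs of which 50 were in 1 cell, and 4.07, the latter from 366 UMIs in 19 cells against 3 UMIs. Igfbp5 in blood endothelial-like cells, at 46.6, 143, 80.5 and 47.4 CPM against 104, 87.9, 52.1 and 97.2 CPM in neutrophil-like cells, had 1.52 and -0.71; 5 cells held 99 of the 156 UMIs of the Trp53-intact ADT library and 38 of the 69 of the Trp53-deleted one.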

How the results depend on the processing

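No paired analysis was possible because each group is 1 library and the libraries carry no shared replicate number. Over 14 other settings, ratios of members called in fibroblast-like cells changed sign 3 times: Igfbp2 with ADT in Trp53-deleted mice was -0.10 (log2) with equal weight over shared clusters, and Igfbp7 was -0.66 with ADT in Trp53-deleted mice and -0.37 between genotypes with ADT when the Ptn and Cdkn2a cluster was counted, a setting added after seeing the data. Ratios under 1.5-fold changed sign more often: with that cluster counted, Igfbp4 was -1.47 and Igfbp5 -0.86 with ADT in Trp53-deleted mice, and between ADT genotypes Igf1 was -2.55, Igfbp4 -1.31 and Igfbp6 -0.85; with equal weight, Igfbp5 was 0.24 with ADT in Trp53-intact mice and Igfbp3 0.12 between ADT genotypes. Igf1 stayed lower with ADT under all settings run (-2.03 to -1.83 with Trp53 intact, -4.39 to -1.47 with Trp53 deleted) and Igfbp3 higher (0.90 to 2.78 and 1.07 to 2.89). Igf1r in luminal progenitor-like cells kept below 1.5-fold in every comparison; taking off neutrophil-like CPM gave it no value, since neutrophil-like cells hold more. Counts of called members moved as follows. At 2-fold, the higher members between untreated genotypes went to 0 and the lower ones between ADT genotypes to 1. With neutrophil-like CPM taken off, higher members with ADT went to 1 (Trp53 intact), lower ones to 2 (Trp53 deleted) and higher ones between untreated genotypes to 0, with Igf1r no longer given a value. Lower members with ADT and Trp53 deleted were 2 with B-like CPM taken off (added after seeing the data), with doublets kept and at 10% mitochondrial UMIs, and 6 with the Ptn and Cdkn2a cluster counted. TMM scaling gave 5 lower members between untreated genotypes. Equal weight gave 1 higher member with ADT and Trp53 deleted and 2 higher between ADT genotypes. With the Ptn and Cdkn2a cluster counted, the ADT genotype comparison had 0 higher and 6 lower. In that setting the cluster outweighed the fibroblast-like cells of its library, since class levels pool UMIs. The share of Igf1 UMIs from fibroblast-like cells was 76.6%, 86.2% and 89.3% in the first 3 libraries with doublets kept, 62.9% in the Trp53-deleted ADT library at 10% mitochondrial UMIs and 75.5% there with the Ptn and Cdkn2a cluster, 88.7% in the Trp53-intact ADT library at 1000 UMIs, and 73.6% and 89.2% in the untreated libraries at resolution 2. The cause of these moves was not tested. In luminal progenitor-like cells TMM scaling took the share of higher calls from 55.4% to 42.1% with ADT in Trp53-intact mice and from 55.3% to 32.5% between untreated genotypes.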

Other observations

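Other stromal and lining cells carried binding proteins as well. In the Trp53-intact library 29 mesothelial-like cells, too few for a level, held 20.9% of all Igfbp6 UMIs, and Igfbp6 was among the leading genes of their cluster. In lymphatic endothelial-like cells Igfbp5 was 1539 CPM in the Trp53-intact library (59 cells) and 265 CPM in the Trp53-deleted ADT library (58 cells), and 5 cells held 70.9% and 81.6% of those UMIs. Smooth muscle and pericyte-like cells held 1671, 1064 and 134 CPM of Igfbp5 in the Trp53-intact, Trp53-intact ADT and Trp53-deleted ADT libraries. In Schwann-like cells Igfbp6 was 31.3 CPM without and 810 CPM with ADT in Trp53-intact mice, but 191 of the 201 UMIs of the latter were in 1 cell. Among neutrophil-like cells, Igf1r was 139, 285, 272 and 208 CPM in the S100a8 and Cxcr2 cluster and 164, 189, 415 and 144 CPM in the Slfn4 and Rsad2 cluster.

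A cluster of the Trp53-deleted ADT library led by Acp5, Ctsk and Atp6v0d2, genes of osteoclasts, held 1816 of its cells and had 14.4 CPM of Igf1 and 20.7 CPM of Igf1r. The Ptn and Cdkn2a cluster of that library held 86.8 CPM of Igfbp2, 539 CPM of Igfbp4 and 494 CPM of Igfbp5.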
